A study of Arabidopsis thaliana with 12 samples.

Results

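MRD1 (AT1G53480, mto 1 responding down 1) is a protein-coding gene on chromosome 1 of Arabidopsis thaliana. It was chosen because its transcript was lower in RDM4 overexpression plants than in wild type at every time sampled, so the genotype differences below describe the choice and carry no test. The array holds 1 probe for MRD1 among 43603 probes, A_84_P11480, annotated to the transcript NM_104226, and MRD1 is 1 of the 20806 genes that could be tested. The reference annotation lists 2 MRD1 transcripts, which this probe cannot tell apart here.

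MRD1 owes its name to a lower transcript level in the mto1 mutant, in which cystathionine gamma-synthase, the first committed enzyme of methionine synthesis, escapes its normal feedback and soluble methionine builds up. The annotation used here assigns the protein no molecular function. RDM4 is a nuclear protein that binds RNA polymerases and takes part in RNA-directed DNA methylation, in which small RNAs guide cytosine methylation, and also in transcription by RNA polymerase II.

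The study asked how RDM4 affects the response of Arabidopsis to cold. Leaf RNA was hybridised to 12 one-colour (Cy3) Agilent arrays, with 2 arrays for each combination of genotype and time. The wild type was the Col ecotype, and the overexpression plants, 35S::RDM4, carried RDM4 under the 35S promoter, which is active in most tissues. How many independent overexpression lines were pooled or compared is not given in the sources used here. All seedlings were 2 weeks old and had grown on MS plates at 23 °C by day and 18 °C by night with 16 h of light. The 0 h plants stayed at room temperature, and the others were sampled after 3 h or 48 h at 4 °C. Each RNA came from the leaves of at least 30 seedlings of a plate. The labels call the 2 arrays of a group biological replicates. The p-values rest only on the spread between replicate arrays, pooled for each gene over all 6 groups and drawn toward that of all genes.

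The arrays were alike as a whole. The 75th percentile of the processed signal, to which each array was scaled, lay between 2700 and 5646 units, replicate arrays correlated at 0.9956 to 0.997 across genes, and 73.3 to 76.7% of probes were well above background. The number of arrays, 2 a group, limits the precision of every value. RDM4, the overexpressed gene, was 44.1-fold higher in overexpression at 0 h, 52-fold at 3 h and 44-fold at 48 h (limma, adjusted p = 1.76e-07, 1.25e-07 and 1.76e-07). Its probe cannot separate the transgene from the native gene. The labels call the tissue leaf, and all 6 leaf markers (among them RBCS1A, CAB2 and PSBO1) were well above background on all 12 arrays. All 8 root markers were too, among them PYK10, a root glucosidase gene, at 5.17 to 6.01 log2 units above the 75th percentile and the root hair gene EXPA7 at -1.31 to -0.73, so root markers were not absent from RNA labelled as leaf. In bulk RNA, fewer cells that express a gene and less RNA per cell cannot be told apart.

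MRD1 was well above background on all 12 arrays, with no outlier call. On the wild type arrays its processed signal, in arbitrary units, read 1880 and 3619 for the 0 h plants. After 3 h at 4 °C it read 1170 and 1809, and after 48 h 1587 and 1866. On the overexpression arrays the same probe read 59.6 and 289.4 for 0 h, 72.0 and 74.9 for 3 h, and 153.0 and 215.2 for 48 h. Each overexpression array was thus dimmer than each wild type array before any scaling. The 153 negative control spots of each array give a second view of the floor. MRD1 was 13.4 to 152 times their 99th percentile on the wild type arrays and 1.28 to 4.93 times on the overexpression arrays. The overexpression values therefore lie nearer to the level of probes with no target.

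The overexpression arrays at 0 h stand apart from each other, and results that use them are given with and without each one. After scaling, MRD1 was -6.16 on replicate 1 and -3.97 on replicate 2 (log2 relative to the 75th percentile of the array), a 4.54-fold gap. In the other 5 groups the replicates differed by 1.02-fold to 1.1-fold. A gap this wide between these 2 arrays was found in 41 of 20806 genes (0.197%), where the median gap over all genes was 0.056 log2. Of the 41 genes, 21 were higher in replicate 2 and 20 were lower. RDM4 itself was 6.11 and 5.90 on these arrays. Which of the MRD1 values stands for the line at room temperature was not tested, since a pair of arrays gives no further value.

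**Figure D1:**
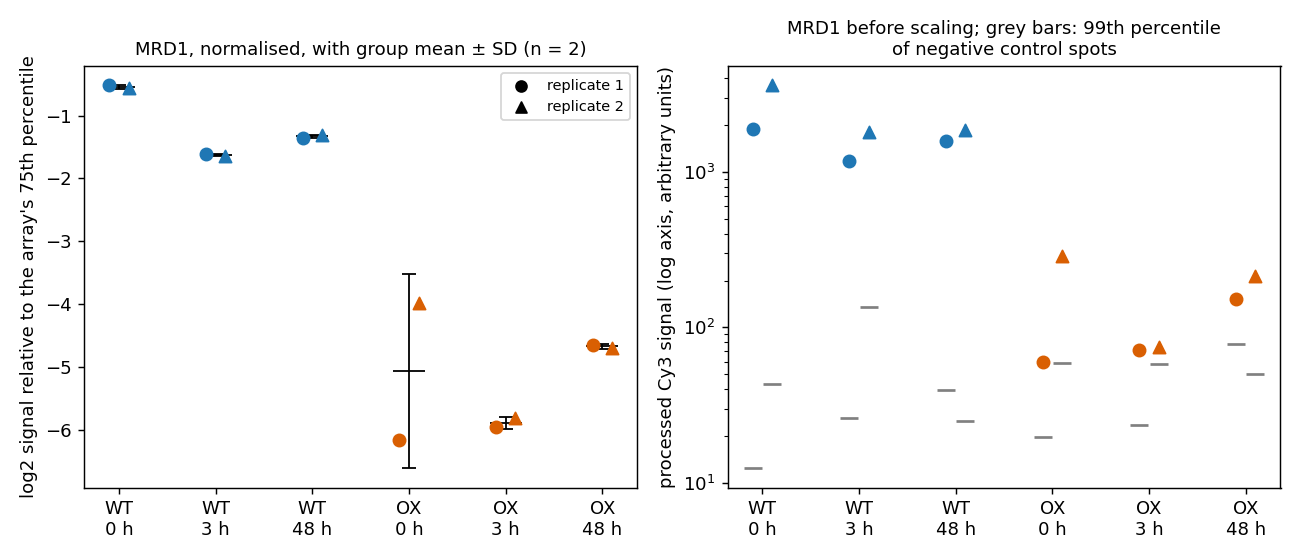
Left, MRD1 on each array (log2 signal relative to the 75th percentile of the array) with the mean and SD of each group (n = 2). Right, the processed Cy3 signal on a log axis in arbitrary units, with a grey bar at the 99th percentile of the negative control spots of that array. Wild type (WT, blue) lies above overexpression (OX, orange) at each time, and the overexpression replicates at 0 h are 4.54-fold apart.

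Ordered by mean, MRD1 was highest in wild type at 0 h, at -0.54 ± 0.03 (log2 relative to the 75th percentile, SD, n = 2) and 68.6% of the percentile. Percentages in this paragraph are arithmetic means of the 2 arrays, not conversions of the log2 mean. MRD1 was -1.33 ± 0.03 (39.7%) in wild type at 48 h and -1.63 ± 0.02 (32.4%) in wild type at 3 h. Then came overexpression at 48 h with -4.67 ± 0.04 (3.94%), at 0 h with -5.06 ± 1.54 (3.88%, from 1.4% and 6.37%) and at 3 h with -5.88 ± 0.10 (1.7%). The 3 wild type groups did not overlap with each other. Among the overexpression groups, 48 h and 3 h did not overlap, while both lay inside the range of the 0 h arrays, so 0 h has no settled place in that order.

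MRD1 in overexpression stood at 4.36% of the wild type level at 0 h, a log2 difference of -4.52 (SE 0.545, 22.9-fold lower). At 3 h it stood at 5.23%, a log2 difference of -4.26 (19.1-fold lower). At 48 h it stood at 9.91%, a log2 difference of -3.33 (10.1-fold lower). The lowest wild type array and the highest overexpression array were still 3.40 log2 units apart at 0 h, 4.17 at 3 h and 3.29 at 48 h. Without overexpression replicate 1 the 0 h difference was -3.43, and without replicate 2 it was -5.61. Other handling of the background made the difference smaller at each time. With normexp it was -3.88 at 0 h, -3.35 at 3 h and -2.87 at 48 h. With the deposited value table it was -3.98, -3.49 and -2.97. Averaged over the times the log2 difference was -4.04 (SE 0.315, 16.4-fold lower). The 8 root markers differed between the genotypes by -0.35 to 0.20 at 0 h, where EXPA7, EXPA18 and SHV2 were lower (12.9% of all genes passed in either direction). They differed by -0.19 to 0.60 at 3 h, where IRT1 and TIP2;3 were higher (4.94%), and by -0.11 to 0.64 at 48 h, where IRT1 was higher (3.73%). Summed, they made up 0.0654 to 0.111% of the signal of a wild type array and 0.0645 to 0.105% of an overexpression array. Their part in the MRD1 difference was not tested.

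Among all 20806 genes, ranked from the most negative difference, MRD1 was number 2 at 0 h, number 1 at 3 h, number 4 at 48 h and number 1 in the average. The genes next to it in the average were AT3G01345, at -3.84 on the log2 scale, and AT5G01080, which was not well above background on any overexpression array and is given no value. Overexpression arrays lay below wild type arrays without overlap at all 3 times in 1084 genes (5.21%). A difference of at least 2-fold at each time was also seen in 3 of them (0.0144%), which were MRD1, AT3G01345 and AT5G03090. Since MRD1 was picked on these values, the ranks and counts only place it and support nothing. AT3G01345 was 11.7-fold, 16.1-fold and 15.8-fold lower in overexpression at 0, 3 and 48 h. AT5G03090 was not well above background on any overexpression array and was at least 4.08-fold, 2.66-fold and 2.38-fold lower. The reference table pairs neither with a named function.

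Slide and scan day were examined as batches, since the arrays lay on 5 slides scanned on 2 days. One slide, slide 3, held both genotypes at the same time point, 48 h, and there MRD1 differed by -3.33 log2 units (1 array each). Within scan day 1 the genotype difference was -5.63 at 0 h and -4.34 at 3 h. Within scan day 2 it was -3.41 at 0 h, -4.17 at 3 h and -3.35 at 48 h. Every overexpression array lay below every wild type array, so the direction of the differences within batches was fixed in advance and supports nothing.

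The change of MRD1 with cold inside each genotype was not used to choose it, and here tests apply. In wild type MRD1 stood 1.08 log2 units below its 0 h level after 3 h at 4 °C (difference -1.08, SE 0.545, 2.12-fold) and 0.79 below it after 48 h (difference -0.79, 1.73-fold). Between 3 h and 48 h the difference was 0.30 (1.23-fold). The wild type arrays of the 3 times did not overlap. How many of all genes show the same was not counted, so this only describes MRD1. The pairs within a slide gave nearly the same values, -1.09 and -1.08 at 3 h, -0.83 and -0.75 at 48 h, and 0.26 and 0.33 between 3 h and 48 h.

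None of these wild type differences passed in the limma fit of all 12 arrays, where the adjusted p was 0.11 at 3 h, 0.214 at 48 h and 0.639 between 3 h and 48 h. For comparison, 68.1% of all genes passed at 3 h, 78.7% at 48 h and 76.1% between the times. That fit gives MRD1 a single spread for all groups, a residual SD of 0.632 log2 units against a median of 0.0569 over genes, and nearly all of it comes from the overexpression arrays at 0 h. Without either of those arrays the wild type values were the same and the adjusted p was 2.05e-06 at 3 h, 5.52e-06 at 48 h and 0.00139 between 3 h and 48 h (limma). Fitted on the 6 wild type arrays alone, an alternative added after the values were seen, it was 2.27e-05, 2.92e-05 and 0.00105. In wild type the replicate number coincides with slide and scan day, and with it as a block in that fit, also added later, the adjusted p was 1.15e-04, 1.14e-04 and 0.00194. The size of the wild type change does not depend on the overexpression arrays, whereas its call does.

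In overexpression, MRD1 at 3 h differed from 0 h by -0.82 log2 units (SE 0.545, limma, adjusted p = 0.211). At 48 h it differed from 0 h by 0.40 (adjusted p = 0.521). Neither value has a settled direction. Without replicate 1 at 0 h the differences were -1.91 at 3 h and -0.69 at 48 h (adjusted p = 5.81e-07 and 4.26e-05), and without replicate 2 they were 0.27 and 1.49 (adjusted p = 0.00794 and 9.44e-07). In these fits the lone 0 h array is assumed to vary like the other groups. Of all genes, 70% passed at 3 h and 79.5% at 48 h in overexpression with all arrays.

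From 3 h to 48 h, MRD1 in overexpression was 1.22 log2 units higher (2.33-fold, SE 0.545), a comparison that uses neither 0 h array. The adjusted p was 0.0714 in the fit of all arrays, where 75.8% of genes passed, and 7.61e-07 without either or both 0 h arrays (limma). Both 48 h arrays were above both 3 h arrays, and how many of all genes show the same was not counted. On slide 5, which holds 1 array of each time, the difference was 1.12. With other settings it was 0.78 (normexp), 0.82 (deposited value table) and 0.99 (scan day as a block), none of which passed.

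The response of MRD1 to cold was also compared between the genotypes. The response at 3 h in overexpression minus that in wild type was 0.26 log2 units (SE 0.771, limma, adjusted p = 0.856), and 7.36% of all genes passed. The same difference at 48 h was 1.19 (adjusted p = 0.473), and 5.45% of all genes passed. Both depend on the 0 h arrays. Without replicate 1 the values were -0.83 and 0.09 (adjusted p = 0.00572 and 0.643), and without replicate 2 they were 1.35 and 2.28 (adjusted p = 0.000885 and 5.87e-05). These data therefore do not settle whether cold moved MRD1 differently in the 2 genotypes.

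**Figure D2:**
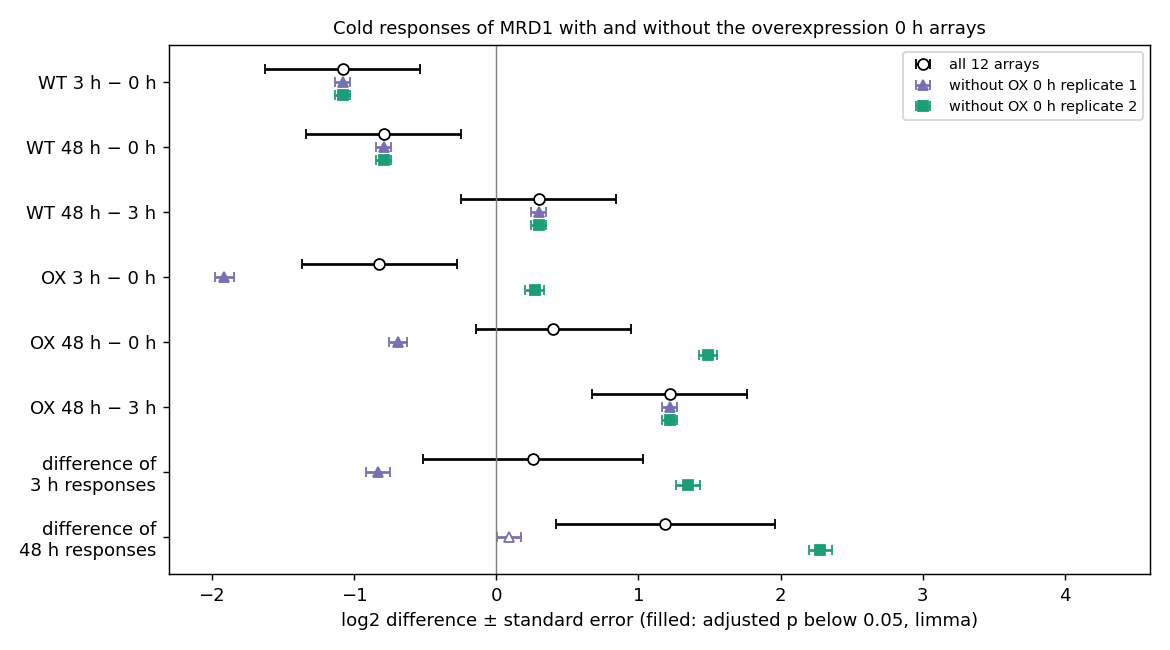
Log2 differences of MRD1 with their standard errors between times in wild type (WT) and overexpression (OX), and the overexpression response minus the wild type response, fitted with all 12 arrays or without 1 overexpression array at 0 h. Filled symbols have an adjusted p below 0.05 (limma); the wild type values stay at -1.08 and -0.79 while the overexpression value at 3 h runs from -1.91 to 0.27.

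The chromosome around MRD1 was examined for genes that differ between the genotypes, using the 10 loci on each side in the order of the reference table. Of these 20 loci, 12 were tested, 1 (AT1G53420) was not well above background, and 7 have no probe. In the reference the annotated span of MRD1 overlaps those of HEI10 and of the noncoding gene AT1G07887, which has no probe. On the other side the nearest loci are U6.9p, with no probe, MSL4, which encodes a MscS-like channel protein, and AT1G53460.

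At 0 h, 3 of the 12 tested neighbours passed between the genotypes, against 12.9% of all genes. HEI10, a factor needed for meiotic crossovers, fell by 0.49 log2 units (SE 0.0394, limma, adjusted p = 3.18e-04). MSL4 fell by 0.32 (adjusted p = 0.00732), and AT1G53540 rose by 0.82 (adjusted p = 7.81e-04). At 3 h, 2 passed (4.94% of all genes), with HEI10 at -0.22 and AT1G53540 at 0.45 (both adjusted p = 0.03). At 48 h none passed in the limma fit (3.73% of all genes), 3 had an unadjusted p below 0.05, and HEI10 was at -0.13 (adjusted p = 0.123). The share of all genes at the unadjusted threshold is not given here, so that count is not read as a result about the neighbours. The median difference of the 12 was 0.02, -0.06 and -0.08 at the 3 times, against -0.01 over all genes at each. AT1G53540 lies outside the nearest 3 loci and is named after its values were seen. The MSL4 call at 0 h was lost without wild type replicate 1 at 0 h (-0.28, adjusted p = 0.0513). At 3 h the HEI10 call was lost without either wild type array of 3 h or of 48 h or overexpression replicate 2 of 3 h (adjusted p = 0.0565 to 0.185), and that of AT1G53540 without any of the 4 arrays of 3 h (0.0525 to 0.183). With slide as a block none of the 12 passed at 0 or 3 h, and HEI10 was at -0.43 and -0.17 (adjusted p = 0.134 and 0.157).

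The annotated spans of HEI10 and MRD1 overlap, so the HEI10 values are given by array. The strand of the MRD1 and HEI10 probes and whether either lies in the overlap were not checked here, so it is not settled that each probe reads its own gene alone. Its measured probe, A_84_P271180, read -3.75 and -3.71 in wild type for 0 h, -4.02 and -4.05 for 3 h, and -3.38 and -3.39 for 48 h (log2 relative to the 75th percentile). In overexpression it read -4.19 and -4.26 for 0 h, -4.24 and -4.28 for 3 h, and -3.48 and -3.55 for 48 h. Overexpression arrays lay below wild type arrays without overlap at each time, as in 5.21% of all genes. The HEI10 means differed by at most 0.49 log2 units, where MRD1 differed by 3.33 to 4.52. The 0 h replicates of HEI10 were close to each other, unlike those of MRD1. A second HEI10 probe, A_84_P725341, was not well above background on any array, and with it no level can be given.

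The gene on the far side of HEI10, MUM4, a rhamnose synthase of seed mucilage, differed by -0.08, -0.04 and -0.03 log2 units between the genotypes at 0, 3 and 48 h, none of which passed. The differences of the tested neighbours ran from -0.49 to 0.82 at 0 h, -0.33 to 0.45 at 3 h and -0.18 to 0.11 at 48 h. MRD1 was picked for its own difference, so that no tested neighbour matched it in size says nothing about the locus.

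**Figure D3:**
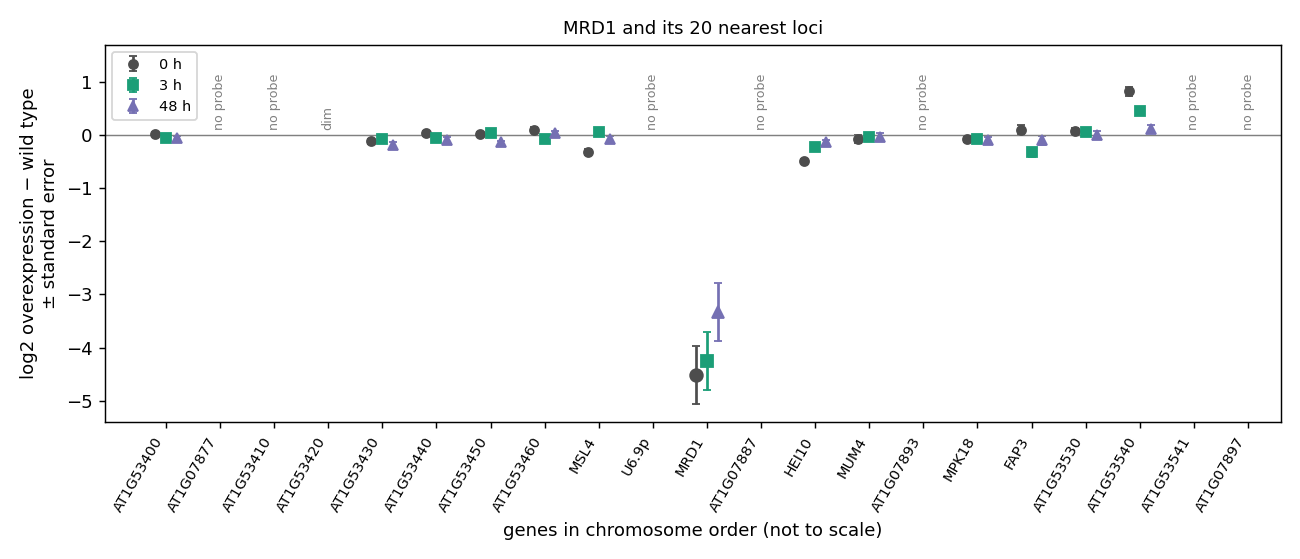
Overexpression minus wild type (log2, with standard error) at 0, 3 and 48 h for MRD1 and the 10 loci on each side, in chromosome order and not to scale. MRD1 lies at -4.52, -4.26 and -3.33, and the 12 tested neighbours lie between -0.49 and 0.82.

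Genes whose pattern over the 12 arrays was most like that of MRD1 were found by Pearson correlation of the scaled log2 values, among 4955 genes with an SD of at least 0.5. The arrays fall into 2 genotypes, so the points share their genotype, and the value is given as a description only. The highest were AT5G03090 (0.939), AT3G01345 (0.908), AT5G01080 (0.771), the NAC-family transcription factor gene NAC071 (0.712) and AT5G08250 (0.697). The lowest were AT1G55546 (-0.952), RDM4 (-0.948), ATSAC1B (-0.90), which encodes a SAC-domain phosphoinositide phosphatase, AT1G60830 (-0.887) and AT5G44360 (-0.869). Several of these genes were near the floor in their dimmer genotype. AT5G03090 and AT5G01080 were well above background on 0 overexpression arrays and NAC071 on 3. On the wild type arrays, AT1G60830 was well above background on 0 and AT5G44360 on 2. Their correlations thus rest partly on values below background.

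In their course with cold the genes most like MRD1 were mixed. In wild type AT5G03090 differed from its 0 h level by -0.63 log2 units at 3 h and -0.33 at 48 h, and NAC071 by -1.17 and -0.13, the direction of MRD1 (-1.08 and -0.79). The wild type arrays of AT5G03090 at 48 h overlapped those at 0 h, so its direction at 48 h is not settled. AT3G01345 differed by 0.26 and 1.39 and AT5G08250 by 0.31 at both times, the other direction. AT5G01080 differed by -0.04 and 1.18, but it was well above background on only 1 wild type array at 0 h and 1 at 3 h. In overexpression at 0 h, AT3G01345 was lower in replicate 2 than in replicate 1, at -3.98 and -3.37, where MRD1 was higher. NAC071 in overexpression was higher in replicate 2 at 0 h, as MRD1 was, but neither of its 0 h arrays was well above background. The bound for AT5G01080 reached 1.75-fold at 48 h but gave no fold at 0 or 3 h. Among genes of opposite pattern, AT1G55546 was 2.39-fold, 3.12-fold and 2.89-fold higher in overexpression at 0, 3 and 48 h.

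**Figure D4:**
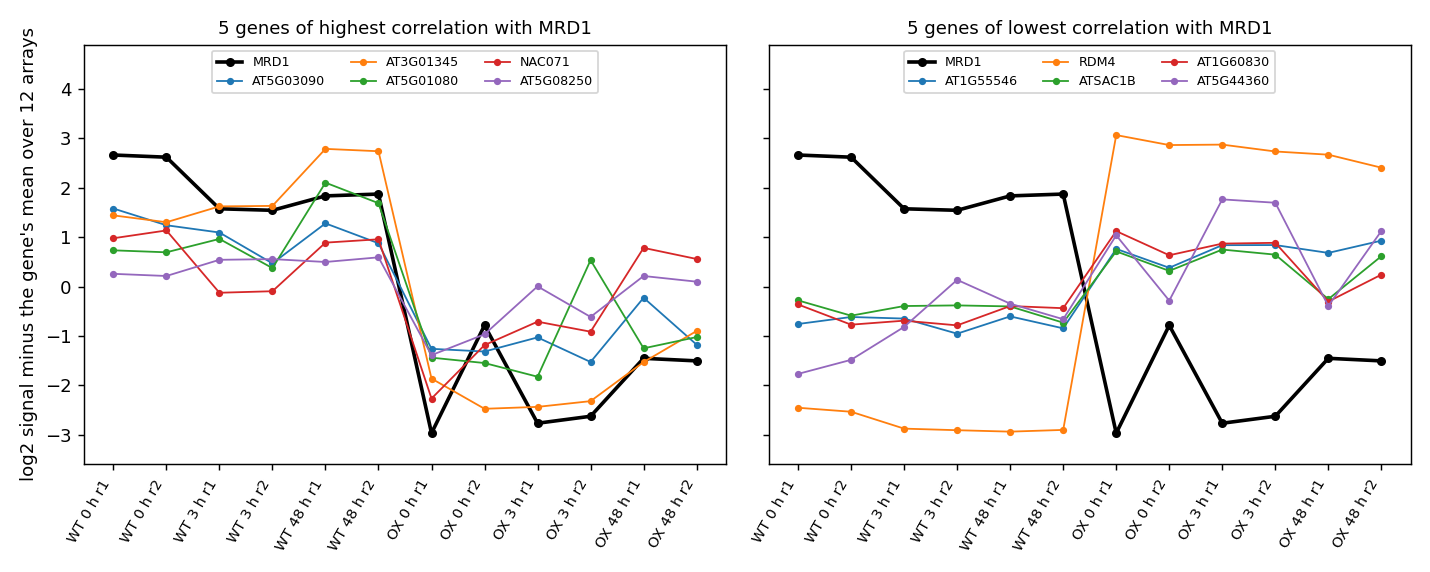
Scaled log2 signal of MRD1 and of the 5 genes with the highest (left) and the 5 with the lowest (right) Pearson correlation with it over the 12 arrays, each minus its own mean; r1 and r2 are replicates. The curve of MRD1 separates wild type (WT) from overexpression (OX), while those of NAC071, AT5G01080 and AT5G44360 overlap between the genotypes. The 2.18 log2 step of MRD1 between the overexpression arrays at 0 h is not shared by AT3G01345. AT5G03090 was not well above background on those arrays, so its lack of a step is not read.

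Over the 6 wild type arrays alone, the genes most like MRD1 were other ones. DIN4, a subunit of the branched-chain keto acid dehydrogenase, and BT5, a BTB and TAZ domain protein, both reached a correlation of 1 after rounding, and AT2G46690 reached 0.999. DIN4 differed from its 0 h level by -2.34 log2 units at 3 h and -1.71 at 48 h in wild type, and by -2.21 and -1.67 in overexpression. Its overexpression arrays differed from wild type by -0.21, -0.08 and -0.18 at 0, 3 and 48 h, against -4.52, -4.26 and -3.33 for MRD1. MAN1, an endo-mannanase gene, GLUR2, a glutamate receptor gene, and ASG4, a MYB-related gene, were at -1. With 3 times of 2 close arrays each, 270 of the 4955 genes exceeded 0.9 and 520 were below -0.9. How many lay as near to 1 or -1 as the genes named here was not counted, so these correlations are a description only.

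Because MRD1 was named from a methionine overaccumulating mutant, 32 genes of methionine synthesis, the methionine cycle and methionine salvage were read from the same fit, and all were tested. In wild type, 23 of the 32 passed at 3 h (14 rose and 9 fell, median 0.03 against -0.04 over all genes), where 68.1% of all genes passed, 30.8% up and 37.3% down. At 48 h, 27 passed (15 rose and 12 fell, median 0.20 against 0.00), where 78.7% of all genes passed, 39.7% up and 39.1% down. Counted in either direction, the shares that passed are near those of all genes. By direction, more of the list rose than fell at 3 h, whereas more of all genes fell, and no test of the list was made. MTO1, the cystathionine gamma-synthase gene mutated in mto1, rose by 0.63 at 3 h and 0.80 at 48 h (limma, adjusted p = 8.17e-05 and 1.19e-05), while MRD1 was lower at both times. Among the others MS2, a methionine synthase gene, rose by 1.72 and 1.01, SAHH2, which clears S-adenosylhomocysteine, by 1.45 and 1.00, and MAT3, an S-adenosylmethionine synthetase gene, by 0.96 and 0.82. ARD3, an acireductone dioxygenase gene of methionine salvage, fell by 2.47 at 3 h (adjusted p = 4.03e-06), and MGL, which cleaves methionine, fell by 1.13 at 48 h (adjusted p = 1.50e-06).

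Few methionine genes passed between the genotypes. At 0 h none of the 32 passed in the limma fit (12.9% of all genes did), and 4 had an unadjusted p below 0.05. MTO1 differed by 0.18, -0.01 and -0.11 log2 units at 0, 3 and 48 h, none of which passed. HMT3, a homocysteine methyltransferase gene, was the single gene to pass at 3 h and at 48 h, where it fell by 0.24 and 0.21 (adjusted p = 0.029 and 0.0323; 4.94% and 3.73% of all genes passed). At an unadjusted p below 0.05 there were 11 at 3 h and 1 at 48 h. The share of all genes at that threshold is not given here, so the counts of 4, 11 and 1 are not read as a result about the list. In the average over the times 3 of the 32 passed, all lower, namely MAT3, HMT3 and AT4G34840 at -0.14, -0.13 and -0.11, where 15.3% of all genes passed. HMT3 was also the single gene of the list whose cold response differed between the genotypes, by -0.32 at 3 h and -0.29 at 48 h (adjusted p = 0.021 and 0.0303). That is 1 of 32 at each time, where 7.36% and 5.45% of all genes passed, so it says nothing particular about the list. The HMT3 genotype calls were lost under 10 of 25 alternatives at 3 h and 13 of 25 at 48 h. Those include, at both times, each fit without 1 wild type array of 3 h or 48 h (adjusted p = 0.0524 to 0.139 at 3 h and 0.0639 to 0.157 at 48 h), without overexpression replicate 2 of the same time (0.177 and 0.14), and at 48 h without either overexpression array of 0 h (0.0513). The median of the list was -0.01, -0.05 and -0.01 at the 3 times, against -0.01 over all genes, while MRD1 was at -4.52, -4.26 and -3.33.

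**Figure D5:**
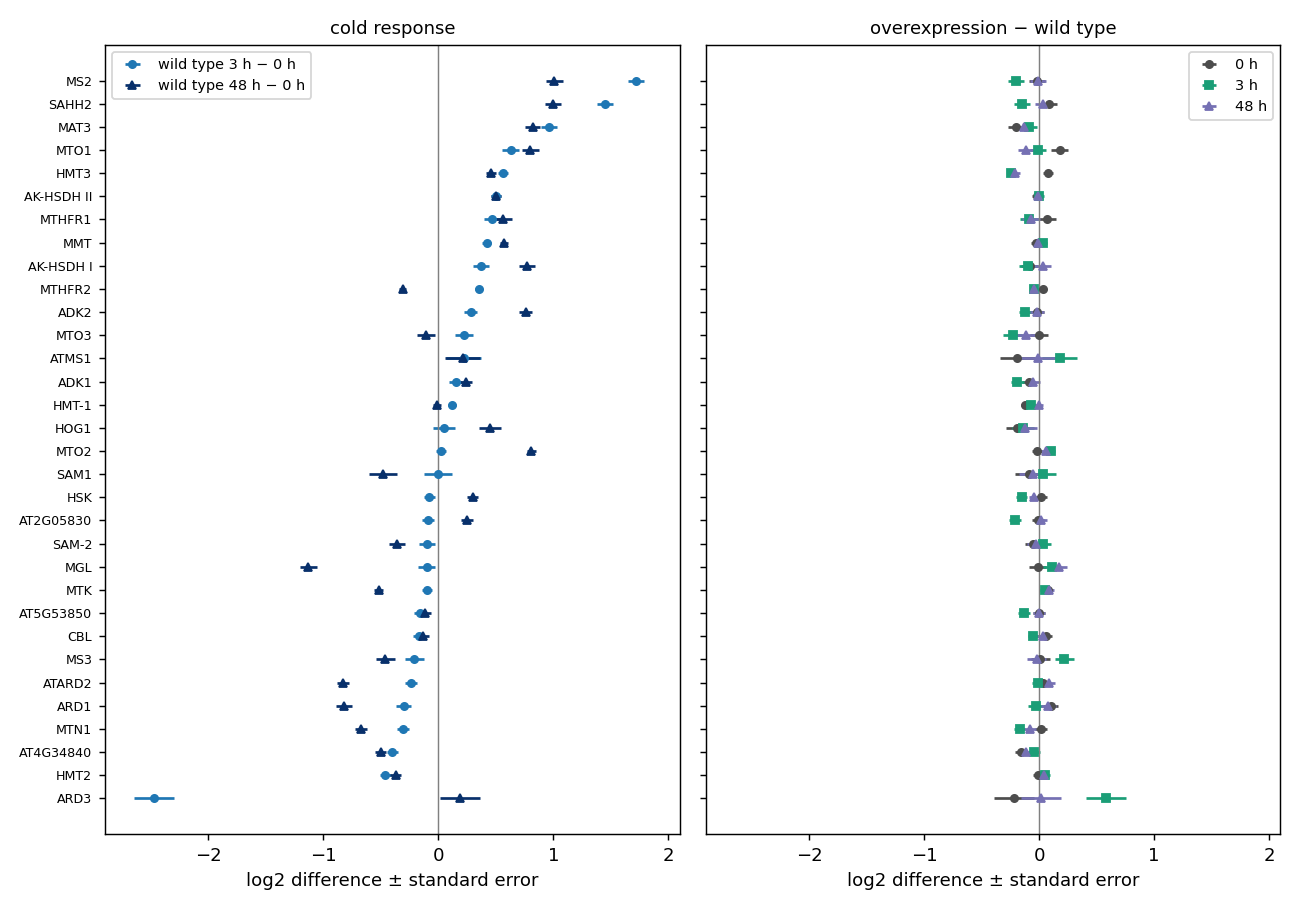
Log2 differences with standard errors for the 32 methionine genes, left for cold in wild type and right for overexpression minus wild type at 0, 3 and 48 h. The wild type cold responses run from -2.47 (ARD3) to 1.72 (MS2), and the genotype differences run from -0.24 to 0.58.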

How the data were processed

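Leaf RNA of 12 samples in 6 groups was hybridised to one-colour 4x44k Agilent arrays. Per the file headers, the deposited files are the scanner output of Agilent Feature Extraction 10.7.1.1, whose processed signal is a background-subtracted intensity in arbitrary units that was not normalised between arrays. The authors' deposited value table was found to equal the scanner median intensity on 11 of 12 arrays and served as an alternative.

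From these files, log2 of the processed signal minus the 75th percentile of each array was taken over non-control spots. Probes were kept if well above background on both arrays of at least 1 group (33198 of 43603), and 108 probes with an outlier call were left out. No spot was saturated. Transcript accessions were matched without versions to the RefSeq table for TAIR10.1, which named a locus for 34285 probes and not for 9318. The array files name an older build, so no coordinates are printed. Each gene was represented by its kept probe of highest mean. Group means were fitted with limma 3.58.1 in R 4.3.3 (lmFit, eBayes), with Benjamini-Hochberg adjustment over 20806 genes per comparison and a threshold of 0.05. The script was tested on simulated data.

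MRD1 and the gene lists were chosen with earlier results of these data known. Named genes are MRD1, RDM4, the nearest 3 loci on each side, the genes ranked next to MRD1, the 5 and 5 genes of highest and lowest correlation with it (3 and 3 within wild type), and methionine genes that passed or changed most. Bounds written as "at least" set the brighter group against the higher of the dim probe's signal and the lowest signal well above background on each array. Alternatives were other background correction (normexp, offset 50), scaling, filters, probe choice, variance model, blocks for replicate, slide and scan day, and leaving out arrays. Sequences were not used here.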

Additional observations from a re-analysis of the deposited data

How the results depend on the processing

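The wild type differences of MRD1 kept their direction under all settings run (29 each), with values of -1.10 to -1.06 at 3 h, -0.81 to -0.74 at 48 h and 0.28 to 0.32 between 3 h and 48 h, and leaving out single arrays gave -1.10 to -1.06, -0.81 to -0.77 and 0.28 to 0.31. They passed (limma) where the spread of the overexpression arrays at 0 h did not enter or was absorbed: fitted on the arrays compared, at -1.08, -0.79 and 0.30 (adjusted p = 2.17e-04, 2.20e-04 and 0.0025); with slide as a block, which leaves 2 residual degrees of freedom, at the same values (1.15e-04, 1.14e-04 and 0.00194); and without both 0 h overexpression arrays or on the 6 wild type arrays alone, without or with a replicate block, again at the same values. At 3 h the call was also made with normexp and with the deposited value table, both at -1.07 (0.0277 and 0.0236). From 3 h to 48 h in overexpression the range without single arrays was 1.15 to 1.29, and over all settings it was 0.78 to 1.33. The difference passed at 1.22 on the arrays compared and without both 0 h arrays (1.86e-04 and 7.61e-07), and at 1.12 with slide as a block (2.65e-04). It did not pass at 0.78 with normexp, 0.82 with the deposited value table or 0.99 with scan day as a block (limma, adjusted p = 0.0786, 0.058 and 0.134). On the 6 overexpression arrays alone none of the 3 differences passed (-0.82, 0.40 and 1.22, adjusted p = 0.319, 0.608 and 0.15).

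Leaving out single arrays moved the overexpression difference from -1.91 to 0.27 at 3 h and from -0.69 to 1.49 at 48 h, and the difference between the responses from -0.83 to 1.35 at 3 h and from 0.09 to 2.28 at 48 h; the extremes are the fits without replicate 1 or 2 of overexpression at 0 h. With slide as a block these 4 values were 0.20, 1.32, 1.28 and 2.11 (adjusted p = 0.0247, 6.14e-04, 0.0221 and 0.0164), the first with its sign turned. Slide 4 holds an overexpression array of 0 h and no other, so that block takes replicate 2 out of the estimate. Without single arrays the genotype difference ran from -5.61 to -3.43 at 0 h, -4.33 to -4.19 at 3 h and -3.36 to -3.31 at 48 h. At 0, 3 and 48 h it was -3.88, -3.35 and -2.87 with normexp, and -3.98, -3.49 and -2.97 with the value table. With slide as a block it was -5.41 at 0 h and -4.13 at 3 h, and with scan day as a block it was -3.56 at 48 h. The cause was not tested.

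Neighbours called between the genotypes numbered 3 at 0 h (2 to 3 without single arrays, 1 with normexp, 0 with slide as a block) and 2 at 3 h (0 to 3 without single arrays; 0 with normexp, the value table, no filter, only the arrays compared or slide as a block), and 0 at 48 h in each setting. HEI10 at 0 h lost its call in 1 of 25 settings, slide as a block (-0.43, adjusted p = 0.134), and at 3 h in 11 of 25. AT1G53540 at 0 h lost its call with normexp (0.29, 0.282) and slide as a block (0.68, 0.236), and MSL4 in 4 settings. Methionine genes called numbered 19 to 24 in wild type at 3 h and 26 to 28 at 48 h. Between the genotypes at 0 h the count of 0 became 1 with normexp or scan day as a block and 2 with quantile scaling (0 to 1 without single arrays). At 3 h the count of 1 became 0 with normexp, the value table, no filter, only the arrays compared or slide as a block, and 2 with quantile scaling, probes above background on all arrays, scan day as a block or trended robust variances (0 to 4 without single arrays). At 48 h it became 0 with normexp, the value table, no filter, only the arrays compared, scan day or slide as a block (0 to 1 without single arrays).

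In wild type the replicate numbers coincide with slide and scan day, and the deviations of replicate 1 from the group means correlated at 0.17, 0.19 and 0.29 across genes. Over the other pairs of groups, the correlations were -0.05 to 0.14, so the numbers do not pair all 12 arrays. With a replicate block over all 12 arrays the MRD1 differences were -1.08 and -0.79 in wild type and -0.82 and 0.40 in overexpression (adjusted p = 0.107, 0.207, 0.203 and 0.51), 0.30 and 1.22 from 3 h to 48 h (0.629 and 0.07), and 0.26 and 1.19 between the responses (0.841 and 0.428). The replicate block raised the methionine counts between the genotypes to 2 at 0 h and 2 at 3 h. With slide as a random block the estimated correlation was 0.151.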

Other observations

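The deposited value table equals the scanner's median signal on all arrays but overexpression replicate 2 at 48 h, where 1.45% of the values are equal. MRD1 is listed there at 268, where the scanner's median signal is 291.5. The source of that column was not tested.

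Of the 41 genes whose overexpression arrays at 0 h differed by at least as much as those of MRD1, 20 were well above background on both arrays, and 8 of these were higher in replicate 2, as MRD1 was.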
